A study of Oryctolagus cuniculus with 16 samples.

Results

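ABI3BP, FNDC1, VIT, MFAP5 and NID2 are 5 genes for secreted proteins of the extracellular matrix, out of 13788 named genes in the counts of a rabbit cerebral artery experiment. They form 1 group because their read counts in the wall of the basilar artery were lower after carotid ligation than after sham surgery. That difference therefore chose them, and it is given below as a description, with values and errors but no test. The tests concern the layer of the wall and the position along the artery. Neither contrast chose the genes, but both use the same libraries, so low values in a ligated tissue can enter them.

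The artery supplying the back of the brain carries more blood once both common carotid arteries are tied, and the study asked how its inner layer and its muscle layer respond to that flow. All animals were female New Zealand white rabbits. Rabbits 3 and 4 had sham surgery, rabbits 5 and 6 had bilateral ligation of the common carotid arteries, and tissue was taken 24 h later. From each rabbit the intima and the media of the straight basilar artery (BA) and of its end, the basilar terminus (BT), were cut out by laser microdissection, with sections of 1 artery pooled, which gave 16 RNA-seq libraries and 2 rabbits in each group of each tissue. With 2 rabbits a group, errors rest on the difference between 2 animals.

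The proteins of this group sit on or between fibres. MFAP5 (MAGP2) is a small glycoprotein of the fibrillin microfibrils that scaffold elastic fibres. NID2, a nidogen, bridges the laminin and collagen IV networks of basement membranes. ABI3BP and FNDC1 carry fibronectin type III domains, and VIT (vitrin) carries an LCCL domain and von Willebrand A domains. In arteries such proteins are made mainly by fibroblasts, smooth muscle cells and endothelial cells.

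The intimal libraries held 5211886 to 17686105 counts on named genes, and the medial ones 2154863 to 11219236. Levels are given as CPM, counts scaled to library size, after TMM scaling, which adjusts library sizes for differences in RNA composition. A count of 0 allows up to 3 counts at 95%, or 0.169 to 1.58 CPM depending on the library, for counting error only. The layers matched their labels in part. The 9 endothelial markers summed to between 1064 and 5307 CPM in the intima and between 57.4 and 964 CPM in the media, but the intimal libraries also held 10255 to 71630 CPM of the smooth muscle actin ACTA2. The BT intima of sham rabbit 3 stood apart, with 14434 CPM of leptomeningeal markers against 3665 CPM in rabbit 4, and with 1064 CPM of endothelial markers against 4950 CPM. In bulk tissue, fewer cells of a type and less RNA per cell cannot be told apart.

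ABI3BP, whose product was first described as a partner of an SH3 domain adaptor, was read in all 16 libraries. The BA media had 406 and 325 CPM in sham rabbits 3 and 4 and 37.4 and 45.6 CPM in ligated rabbits 5 and 6. In the BT media the same 4 animals gave 320.4, 352, 33.7 and 32.0 CPM. Ligated libraries were thus far below sham libraries in both parts of the media, with little spread inside each group. In the BA intima the sham rabbits had 356 and 173 CPM and the ligated rabbits 4.90 and 40.7 CPM. In the BT intima the values were 137 and 181 CPM against 10.9 and 24.8 CPM. Over all tissues the 8 sham libraries lay between 137 and 406 CPM. The 8 ligated libraries lay between 4.90 and 45.6 CPM, with no overlap. Each side came from the same rabbits, 3 and 4 or 5 and 6, so these are not 8 independent values. The sham mean exceeded the ligated mean 11.6-fold in the intima of the BA and 8.91-fold in that of the BT, and 8.80-fold and 10.2-fold in the 2 media. The fitted log2 fold changes for ABI3BP were -3.56 (SE 0.92), -3.16 (SE 0.57), -3.12 (SE 0.37) and -3.35 (SE 0.36) in that order. The sizes in the intima rested partly on single animals, since the BA value was -5.75 without rabbit 6, -2.72 without rabbit 5 and -2.92 without rabbit 3, and the BT value was -3.87 without rabbit 6.

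FNDC1, also known as an activator of G protein signalling, had a like pattern. Its level in the BA media was 209 and 517 CPM in sham rabbits 3 and 4 and 20.6 and 22.8 CPM in ligated rabbits 5 and 6. The BT media had 309.7, 397, 37.1 and 10.3 CPM in the same animals. Both ligated animals were again below both sham animals. The BA intima gave 157 and 249.9 CPM in sham and 24.1 and 13.7 CPM in ligated rabbits. The BT intima gave 50.3 and 90.5 CPM against 5.79 and 13.6 CPM. Over all tissues the highest ligated library, at 37.1 CPM, remained under the lowest sham library, at 50.3 CPM. The 8 sham libraries came from rabbits 3 and 4 alone, and the 8 ligated libraries from rabbits 5 and 6. FNDC1 was chosen on this difference, and the share of all genes that separate over all tissues was not computed. Its fitted log2 fold changes were -3.42 (SE 0.57) and -2.86 (SE 0.67) in the intima of the BA and the BT, and -4.04 (SE 0.52) and -3.92 (SE 0.55) in their media. These are folds of the means of 10.8, 7.27, 16.7 and 14.9. For FNDC1 the BT intima value was -3.60 without rabbit 6, the BA media value was -3.26 without rabbit 4, and the BT media value was -5.10 without rabbit 5 and -3.25 without rabbit 6.

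**Figure D1:**
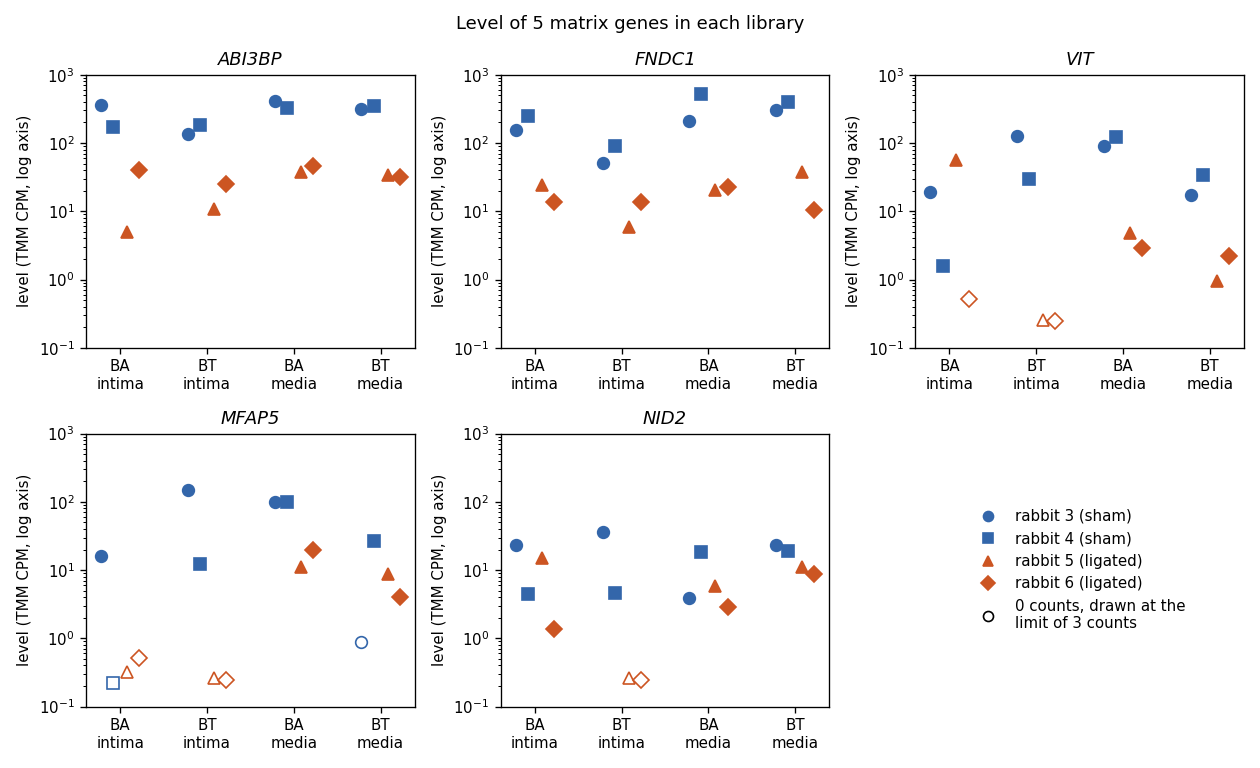
Level of each of the 5 genes in each of the 16 libraries, in CPM after TMM scaling on a log axis, by tissue. Each symbol is 1 library, sham in blue and ligated in orange, and open symbols are libraries with 0 counts drawn at the level of 3 counts. ABI3BP and FNDC1 separate sham from ligated in all 4 tissues, while VIT, MFAP5 and NID2 have libraries at 0 and overlap in at least 1 tissue.

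VIT, the vitrin gene, was lower after ligation in 3 of the 4 tissues and not in the BA intima. The BA media held 90.4 and 123 CPM of it in sham rabbits and 4.75 and 2.88 CPM in ligated rabbits, a log2 fold change of -4.83 (SE 0.58). In the BT media VIT stood at 17.1 and 33.6 CPM against 0.935 and 2.22 CPM, a log2 fold change of -3.92 (SE 0.96), or -4.72 without rabbit 6. Neither part of the media overlapped. In the BT intima the sham rabbits had 125 and 29.7 CPM and both ligated libraries had 0 counts, so that the sham mean was at least 305-fold higher, counting 3 counts for each ligated library. With sham rabbit 4 alone this bound was 117-fold. The BA intima went its own way, since rabbit 3 had 19.3 CPM, rabbit 4 1.57 CPM, rabbit 5 56.8 CPM from 533 counts, and rabbit 6 0 counts. The highest and the lowest value of that tissue were both from ligated animals, and the log2 fold change of VIT there was 1.44 with an SE of 1.85, which turned negative without rabbit 5.

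MFAP5, the microfibril gene, had 6 libraries at 0 counts. Its level in the BA media was even within groups, at 100.9 and 100.3 CPM in sham rabbits and at 11.1 and 19.4 CPM in ligated rabbits, a log2 fold change of -2.69 (SE 0.51). In the BT intima it stood at 148 and 12.4 CPM in sham rabbits and at 0 counts in both ligated rabbits, so that the sham mean was at least 318-fold higher. Rabbit 3 gave 92.3% of that sham level, and with rabbit 4 alone the bound was 49.2-fold. In the BA intima rabbit 3 alone had reads, at 15.9 CPM, and rabbits 4, 5 and 6 had none, so that the groups overlapped. In the BT media rabbit 3 had 0 counts, rabbit 4 26.5 CPM, rabbit 5 8.73 CPM and rabbit 6 4.09 CPM. The ligated libraries there lay between the sham libraries, and the log2 fold change of MFAP5 was -1.07 with an SE of 1.46, which turned positive without rabbit 4.

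NID2, the nidogen, was the least regular of the 5. The BT media held 23.2 and 19.2 CPM in sham rabbits and 11.2 and 8.65 CPM in ligated rabbits, a log2 fold change of -1.09 (SE 0.75). In the BT intima NID2 stood at 35.6 and 4.68 CPM in sham rabbits and at 0 counts in both ligated rabbits, at least 79.6-fold higher for the mean and 18.5-fold for rabbit 4 alone. Those were the tissues without overlap. In the BA intima the values were 23.2 and 4.48 CPM against 15.0 and 1.37 CPM, and in the BA media 3.96 and 18.5 CPM against 5.80 and 2.88 CPM. Sham and ligated libraries of NID2 overlapped in both, with log2 fold changes of -0.75 (SE 1.30) and -1.36 (SE 1.20). The first turned positive without rabbit 3 or rabbit 6 and the second without rabbit 4.

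Both ligated libraries were below both sham libraries for 2 of the 5 genes in the BA intima, where 20.0% of all genes tested did the same, and for 5 of 5 in the BT intima, where 25.5% did. In the BA media this held for 4 of 5 genes (25.6% of all genes) and at the BT for 4 of 5 (22.9%). The genes were chosen on these libraries, so nothing is read from those counts. In the BT intima the sham mean of VIT, MFAP5 and NID2 rested mostly on rabbit 3, which supplied 80.8%, 92.3% and 88.4% of their summed sham CPM but 43.1% for ABI3BP and 35.7% for FNDC1. The separation held without that rabbit for 5 of 5 genes, but leaving out a library cannot undo it, so this is no check.

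**Figure D2:**
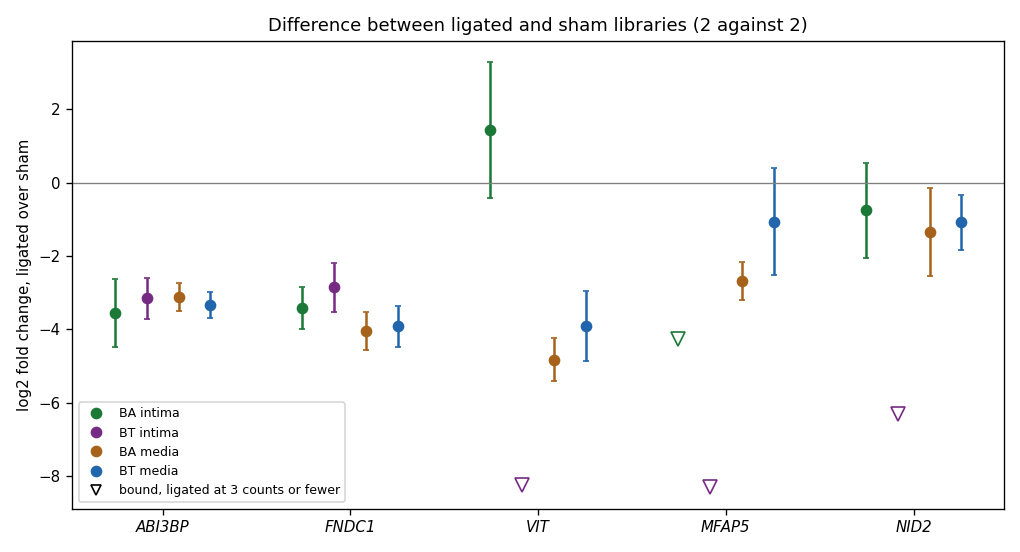
Fitted log2 fold change of ligated over sham for the 5 genes in 4 tissues (2 libraries against 2), with bars of 1 SE, where open triangles are bounds computed with 3 counts in each ligated library at 0. ABI3BP and FNDC1 lie between -2.86 and -4.04 in every tissue, and VIT in the BA intima is the point above 0.

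The order of the group means differed between the genes. ABI3BP and FNDC1 ran in the order BA media, BT media, BA intima and BT intima among sham groups, from 366 down to 159 CPM and from 363 down to 70.4 CPM. For both genes the sham libraries of the BA and BT media overlapped, and for ABI3BP those of the BA and BT intima as well. All 4 ligated groups of ABI3BP, at 41.5, 32.8, 22.8 and 17.8 CPM, followed the 4 sham groups. For MFAP5 and VIT the highest groups were the sham BA media (101 and 107 CPM) and the sham BT intima (80.4 and 77.3 CPM), and the libraries of these groups overlapped. For NID2 the 4 sham means lay between 11.2 and 21.2 CPM, and groups next to each other in that order overlapped.

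The comparison of intima and media asked which layer held the transcripts. The intimal level of ABI3BP was below the medial level of the same rabbit and place in 8 of 8 pairs, with means of 116 and 194 CPM. The log2 difference was -1.01 (SE 0.28, q = 0.0423, edgeR quasi-likelihood test with the pair as a block). The 8 pairs came from 4 rabbits. The test treats the BA and BT pairs of a rabbit as independent, so its error may be too small. Of all genes tested, 8.98% passed in either direction, 4.13% being lower and 4.85% higher in the intima. Among the 5 genes, 1 passed. The call was lost when any 1 rabbit was left out, with q between 0.0617 and 0.186. It was also lost without the pair block (q = 0.686) and with scaling to library size alone (q = 0.0852), which shifted the median of all genes from 0.06 to 0.28.

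The other 4 genes did not pass that test. FNDC1 had means of 75.6 CPM in the intima and 190 CPM in the media, with a log2 difference of -1.13 (SE 0.37, q = 0.0832), and was lower in the intima in 6 of 8 pairs. The log2 differences were -1.72 (SE 1.31, q = 0.490) for VIT, -4.66 (SE 1.80, q = 0.141) for MFAP5 and -1.39 (SE 1.24, q = 0.567) for NID2. MFAP5 was lower in the intima in 7 of 8 pairs and higher in the pair from the BT of sham rabbit 3. That intima had 148 CPM from 2192 counts and that media 0 counts, at least a 170-fold difference. Without rabbit 3, MFAP5 had a log2 difference of -7.61 and q = 0.0109, with q between 0.277 and 0.441 when another rabbit was left out. In all 4 ligated pairs the MFAP5 reads were in the media, at 4.09 to 19.4 CPM, and the intima had 0 counts.

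**Figure D3:**
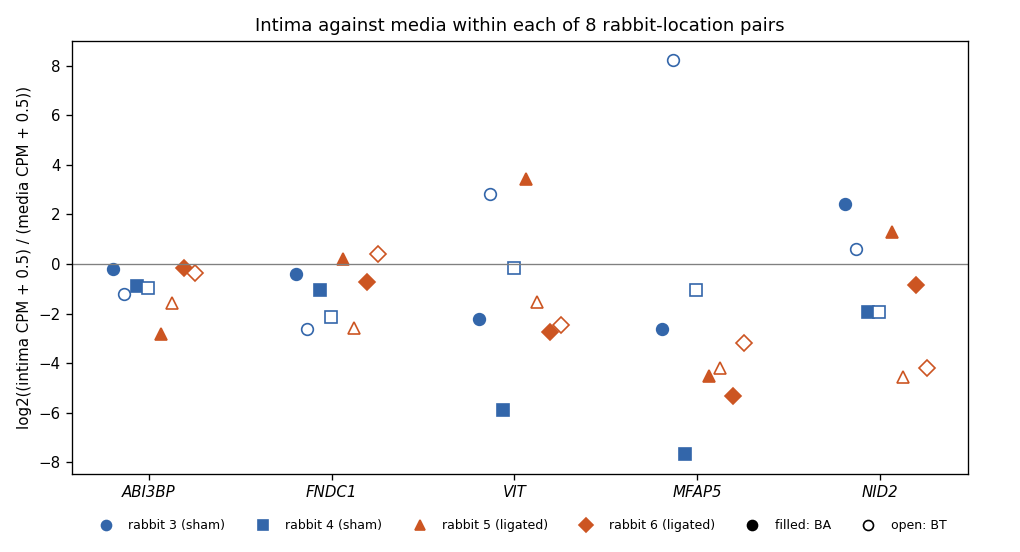
Log2 ratio of intima to media, with 0.5 CPM added to each, within 8 pairs from the same rabbit and place, for the 5 genes. Points below 0 are lower in the intima, as all 8 are for ABI3BP, and the single MFAP5 point above 0 is the BT of sham rabbit 3.

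The comparison of BT with BA asked whether the genes differed between the branching end of the artery and its straight part. None of the 5 passed in the intima, where 0.0110% of all genes did, or in the media, where 0.0227% did (edgeR quasi-likelihood test with the rabbit as a block). DESeq2 also called 0 of the 5 in each layer. Over all genes it called 14 higher and 13 lower of 9131 in the intima, and 25 and 27 of 8829 in the media. Unadjusted p-values under 0.05 belonged to FNDC1 and MFAP5 in the intima and to VIT and MFAP5 in the media. FNDC1 was lower at the BT in the intima of 4 of 4 rabbits, by a log2 difference of -1.31 (SE 0.37, edgeR q = 1.00). VIT was lower at the BT in the media of 4 of 4 rabbits, at 17.1, 33.6, 0.935 and 2.22 CPM against 90.4, 123, 4.75 and 2.88 CPM, a log2 difference of -1.76 (SE 0.46, edgeR q = 0.439). MFAP5 had a log2 difference of 4.79 in the intima (SE 1.43, edgeR q = 1.00) and of -2.54 in the media (SE 0.89, q = 0.821). The intimal value of MFAP5 rests on the sham rabbits, since both ligated rabbits had 0 counts of it in the intima at both places. NID2 was higher at the BT in the media of 4 of 4 rabbits, with a log2 difference of 1.27 (SE 0.70, edgeR q = 0.980). ABI3BP had log2 differences of -0.26 (SE 0.41) and -0.23 (SE 0.23) in the 2 layers.

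Within the 8 sham libraries, which share 2 rabbits and differ in depth, log2 levels of VIT and MFAP5 had a Pearson r of 0.884 and a Spearman rho of 0.946. ABI3BP and FNDC1 had an r of 0.686 and a rho of 0.333, and the other 8 pairs of genes had an r between -0.24 and 0.36. In the 8 ligated libraries, VIT and MFAP5 had an r of 0.198 and ABI3BP and FNDC1 an r of 0.182. These figures describe 8 libraries each. Among 8697 genes with a mean above 1 CPM, those whose log2 levels were most like each member over the 16 libraries were ALDH6A1 and CST3 for ABI3BP (r = 0.961 and 0.949), RYR2 and MAGED2 for FNDC1 (0.943 and 0.940), COL23A1 and ADAMTSL3 for VIT (0.943 and 0.932), EFEMP1 and HLA-DMA for MFAP5 (0.910 and 0.885), and IGDCC4 and PYGL for NID2 (0.889 and 0.872). The third of each were CDKL2, DPEP2, SLC7A11, DSP and RENBP. These lists depended on the measure, since by ranks 1 of the 3 genes remained for ABI3BP, for FNDC1 and for VIT and 0 for MFAP5 and NID2. Within the sham libraries alone the leading genes of ABI3BP had an r of 0.485 and 0.647, and COL23A1 had 0.947 with VIT. COL23A1 and EFEMP1 code for a collagen and for a fibulin.

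Other matrix genes were read from 4 lists of 96 genes, of which 75 were in the matrix. The lists were chosen with earlier results of these data known. Counts of listed genes, here and below, therefore describe these libraries and are no independent evidence of a matrix response. In the BA media 69 could be tested, and 6 were lower and 1 higher after ligation by the edgeR quasi-likelihood test, against 0.375% and 0.432% of all genes. Their median log2 fold change was -0.89, and that of all genes was -0.15. Those that fell included OGN, COL3A1, COL1A2 and DCN, for collagens or proteins bound to collagen fibres. OGN, the osteoglycin gene, fell from 7510 to 2096 CPM (log2 fold change -1.84, SE 0.25, q = 0.0219), COL3A1 from 6911 to 2142 CPM (-1.69, SE 0.26, q = 0.0366), COL1A2 from 3606 to 1279 CPM (SE 0.26, q = 0.0481) and DCN likewise (-1.72, SE 0.30, q = 0.0481). EFEMP1, a fibulin, fell by 2.17 on the log2 scale (q = 0.0448), and the laminin gene LAMB2 fell by 2.43 (q = 0.0440). TNC, the tenascin C gene, whose product appears in remodelling tissue, rose from 1674 to 7908 CPM (2.24, SE 0.23, q = 0.0123). These calls could not be checked by leaving out a rabbit, since that leaves 1 library in a group, which is then taken to vary like the other group.

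In the BT media 68 of the listed genes were tested, and 2 were lower and 1 higher, against 1.18% and 1.16% of all genes. OGN fell by 2.75 on the log2 scale (SE 0.31, q = 0.00116) and COL3A1 fell by 1.44 (SE 0.29, q = 0.0253), and TNC rose by 1.87 (SE 0.29, q = 0.00691). EFEMP1 was at 1.53 in the BT media (q = 0.308), FBLN5 at -1.65 (q = 0.0569), LAMB2 at -1.31 (q = 0.0732), HSPG2 at -1.42 (q = 0.102) and EMILIN1 at 1.69 (q = 0.0882). The median of the list was -0.18 against 0.03 for all genes. Leaving out 1 rabbit was no check on these calls either, for the same reason as in the BA media.

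In the intima 0 of 65 listed genes passed in the BA and 0 of 65 in the BT, and 0% of all genes did. At an unadjusted p below 0.05 there were 3 higher and 8 lower in the BA and 6 higher and 9 lower in the BT, and DESeq2 called 4 and 8. Of all genes, 534 of 8974 in the BA and 1079 of 9273 in the BT had such a p-value. DESeq2 called 65 of all genes higher and 53 lower in the BA, and 193 and 420 in the BT. Among the listed genes the smallest p-values belonged to LUM and OMD in the BA intima and to OMD and OGN in the BT intima. OMD, osteomodulin, was at 308.7 and 40.9 CPM in sham and ligated BA intima and at 267 and 18.4 CPM in the BT intima (q = 0.269 and 0.247). MFAP2 and NID1, the nearest relatives of MFAP5 and NID2, were not analysed here. COCH, which shares the domain types of VIT, was at 7.66 and 0.897 CPM in the sham BA intima and at 0 and 0.171 CPM in the ligated BA intima. COCH overlapped in the BT intima, with 8.32 and 0.146 CPM in sham and 1.04 and 0 CPM in ligated rabbits. It had 0 counts in 3 of the 4 BA media libraries, and 1.05 CPM in that of ligated rabbit 6, and in the BT media 0 and 6.29 CPM in sham and 0 and 0.117 CPM in ligated rabbits.

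Markers of the cells that could make these proteins differed between the same libraries, not all in 1 direction. Of 12 fibroblast markers 9 were in the matrix, and their summed level was 3390 to 7870 CPM in sham intima, 1140 to 3564 CPM in ligated intima, 14091 to 19560.5 CPM in sham media and 5367 to 8430 CPM in ligated media. Both ligated libraries were below both sham libraries for 2 of 9 of them in the intima of the BA and 6 in that of the BT, and for 6 and 4 in the media of these places, where 20.0%, 25.5%, 25.6% and 22.9% of all genes did so. In the BT media 1 of the 9 was above sham in both ligated libraries. The sum rests on COL3A1, COL1A2 and DCN, which are also on the matrix lists. PDGFRA, which marks fibroblasts, spanned 0 to 70.3 CPM in sham and 0 to 8.95 CPM in ligated intima, which overlapped. COL1A1 had medians of 4.22 and 3.48 CPM in sham and ligated intima, and DPT 16.4 and 22.9 CPM in sham and ligated media.

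Of 12 leptomeningeal markers 8 were in the matrix, with 2925 to 14434 CPM in sham intima, 255 to 1759 CPM in ligated intima, 7055 to 12146 CPM in sham media and 1651 to 2896 CPM in ligated media. OGN gave 62.3% to 99.4% of that sum. Both ligated libraries were below both sham libraries for 2 of the 8 in the intima of the BA and 6 in that of the BT, and for 4 and 3 in the media of these places. In each tissue other than the BT intima, 1 of the 8 was above sham in both ligated libraries. SLC22A8, a transporter of meningeal cells, had 0 counts in all 4 ligated intimal libraries. The sham intimal libraries had 0 to 253 CPM of it, with a median of 2.03 CPM and 1 library at 0. ALDH1A2, a retinoic acid synthesis enzyme, had higher medians after ligation, of 41.9 and 92.2 CPM in sham and ligated intima and of 87.4 and 329 CPM in the media, as did CRABP2, a retinoic acid binding protein, with 24.6 and 63.1 CPM and 3.26 and 18.9 CPM. In the BA intima of ligated rabbit 5, where VIT and NID2 were highest among the ligated intimal libraries, DCN stood at 1940 CPM against 17.5 CPM in rabbit 6, while ABI3BP was at 4.90 CPM, its lowest of all 16. Other fibroblast markers did not all follow DCN there. COL1A2 was at 686 against 607 CPM, COL1A1 at 8.20 against 2.40 CPM and LUM at 0 CPM in both. The fibroblast sum was 3564 CPM in rabbit 5 and 1373 CPM in rabbit 6. The 8 macrophage markers summed to between 52.9 and 759 CPM, and 7 of them were below sham in both ligated libraries of the BT intima, 2 in BA media and 0 elsewhere, while 3 were above sham in the BT media and 1 in the BA intima. Of the 6 smooth muscle markers, 3 were below sham in the BA intima and in each media and 2 in the BT intima, and 1 was above sham in each media. MYH11, a smooth muscle myosin, had medians of 1549 and 548 CPM in sham and ligated media. Of the 9 endothelial markers, 3 were above sham in the BA intima, 4 at the BT and 2 in each media, and 1 was below sham in the BT intima. Of all genes, 1386 of 8974 were above sham in the BA intima and 1895 of 9273 in the BT intima. In the BA and BT media 1877 of 8800 and 2253 of 8783 were, so the endothelial counts there were near the share of all genes. The shares below sham were 20.0%, 25.5%, 25.6% and 22.9% in the same order. The 7 brain tissue markers reached at most 10.9 CPM in any library, with AQP4 at 0 counts in all 16. The part of these cell types in the differences of the 5 genes was not tested.

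Dividing each level by the summed fibroblast markers of the same library, a scale added after the data were seen, kept the ligated libraries below the sham libraries in 4 of 4 tissues for ABI3BP and for FNDC1. Per 1000 CPM of those markers, ABI3BP was at 18.6 to 20.8 CPM in sham and 6.98 to 7.52 CPM in ligated BA media, and at 20.6 to 22.7 CPM and 3.80 to 4.63 CPM in the BT media. FNDC1 was at 10.7 to 29.5 CPM against 3.76 to 3.83 CPM in the BA media. VIT kept the separation in 3 tissues, MFAP5 in 2 and NID2 in 1. Per leptomeningeal marker, ABI3BP kept it in 2 tissues, both in the media, FNDC1 and VIT in 3, MFAP5 in 2 and NID2 in 1. In the BT intima ABI3BP was then at 9.48 and 49.4 CPM in sham and 42.7 to 49.1 CPM in ligated libraries per 1000 CPM of markers, which overlapped. In the BT media MFAP5 and NID2 were on that scale higher in both ligated libraries than in both sham libraries. These scaled levels were computed for the 5 genes only, without a share of all genes. Ligation also chose the 5 genes, so nothing is read from the counts of tissues.

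**Figure D4:**
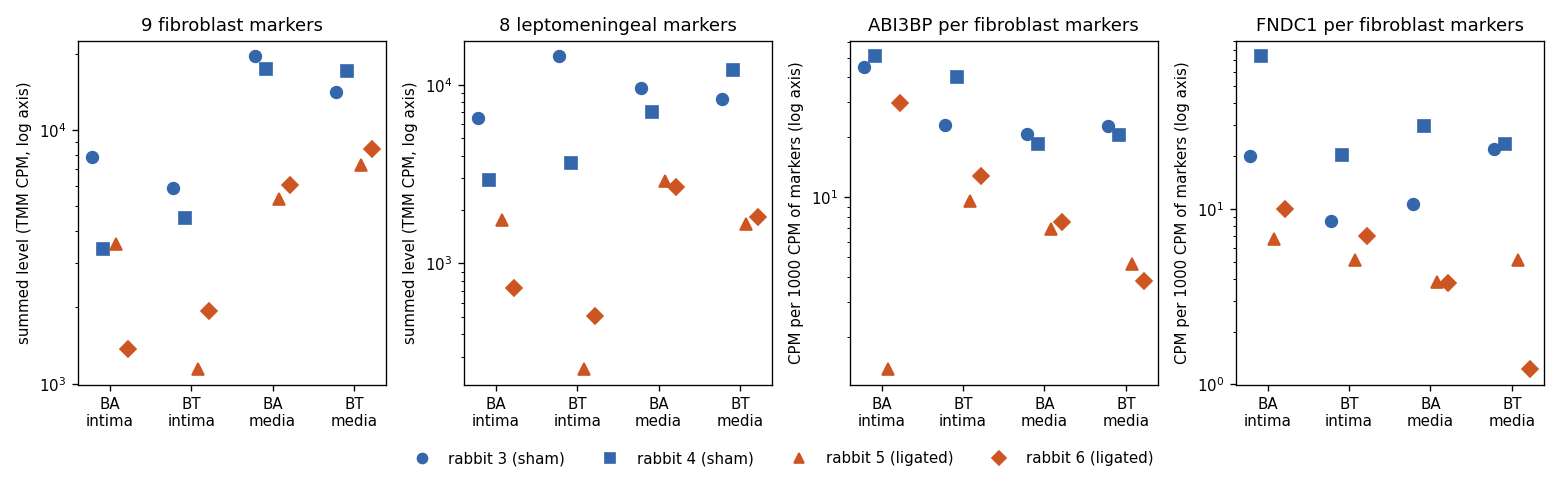
Summed level of 9 fibroblast and 8 leptomeningeal markers, and ABI3BP and FNDC1 per 1000 CPM of the fibroblast markers, in each of the 16 libraries on log axes. Symbols are single libraries, sham in blue and ligated in orange. Both marker sums are lower in ligated than in sham media, and ABI3BP and FNDC1 stay lower in ligated libraries after division by the fibroblast sum.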

How the data were processed

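RNA from laser-microdissected intima and media of 4 rabbits was amplified with SMART-Seq v4, made into Nextera libraries and sequenced as single reads. The authors aligned the untrimmed reads to OryCun2.0 with STAR, kept unique alignments and counted reads on Ensembl exons with featureCounts 1.6.2. The deposited values were raw counts per gene symbol. The counting used a strand setting although the kit does not mark strand, so overlapping genes on opposite strands cannot be told apart. The entry without a symbol, 13.8% to 18.7% of the counts, was left out. All 16 columns were used. Gene lengths were not used, so levels are not compared between genes.

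Counts were tested with edgeR 4.0.16 (quasi-likelihood, TMM, Benjamini-Hochberg over all genes tested) in R 4.3.3, for genes with a mean above 1 CPM in at least 1 group, at q below 0.05, and the scripts were tested on simulated data. Ligation was fitted in each tissue, layer with the rabbit and place as a block and position with the rabbit as a block, since both libraries came from the same animal. The 2 libraries of a group came from different rabbits, and their counts differed by a chi-square of 22.5 to 456 per degree of freedom, so none was a repeat. Correlations used log2(CPM + 0.5). Alternatives were DESeq2 1.42.0, other scalings, filters and fits, and leaving out each rabbit. The 5 genes, the gene lists and the markers were chosen with earlier results of these data known. Genes named were the 5 members, their relatives, from each list and ligation comparison up to 3 genes of smallest q in each direction (2 of smallest p where none passed), and the 3 genes most like each member. DCN in the BA media, EFEMP1 in the BT media and the markers COL1A1, DPT, ALDH1A2 and CRABP2 were named after their values were seen. So were DCN, COL1A2 and LUM in the single libraries of the ligated BA intima. Protein and promoter sequences were not used here.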

Additional observations from a re-analysis of the deposited data

Results flagged for a closer look

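The log2 ratio of intima to media of MFAP5 was 8.22 at the BT of sham rabbit 3, far from the other 7 pairs, which were all below 0. Of 15 groups examined in this way it was the one to stand out, and chance gives that in about 5% of groups.

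NID2 in the intima was higher at the BT than at the BA in sham rabbit 3, nearly level in sham rabbit 4 and lower in both ligated rabbits. The mean log2 ratio of BT to BA was 0.33 in the sham rabbits, with 35.6 against 23.2 CPM in rabbit 3 and 4.68 against 4.48 CPM in rabbit 4. In the ligated rabbits it was -3.43, with 0 counts at the BT against 15.0 CPM in rabbit 5 and 1.37 CPM in rabbit 6. In rabbit 4 the levels came from 32 counts at the BT and 60 at the BA. Low values after ligation chose NID2, and the 0 counts at the BT force the lower direction in the ligated rabbits. Nothing is therefore read from this contrast, and the difference between the groups was not tested.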

How the results depend on the processing

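The count of members below sham in both ligated libraries was the same with RLE scaling and with library size alone in the 4 tissues. It was not recomputed under the other filters and tools. With 1 rabbit left out it ran from 2 to 4 in the BA intima. Leaving out a library cannot undo a separation, so it cannot lower this count. Over all genes the count rose there too, from 1796 of 8974 to 3092 of 8973 without rabbit 5 and 3414 of 8878 without rabbit 6. Nothing is read from the rise. Per leptomeningeal marker the count of members was 3 in the BT intima and 1 in that of the BA. The listed genes that passed varied more. With all genes that had a count they were 5 and 9 in the intima of the BA and the BT and 16 and 14 in their media, and with DESeq2 4, 8, 17 and 15. Under the first setting the higher and lower calls over all genes were, in that order, 58 and 65 of 10618, 109 and 237 of 11095, 272 and 235 of 10359, and 283 and 274 of 10471. With DESeq2 these were 65 and 53 of 8974, 193 and 420 of 9273, 282 and 211 of 8800, and 280 and 307 of 8783. In a fit over all 16 libraries the listed genes that passed were 1 in BT intima, 1 in BA media and 0 in BT media. Over all genes that fit called 39 higher and 35 lower, 29 and 11, and 11 and 8 in these tissues. In the BA media the listed genes that passed were 2 with filterByExpr (22 higher and 19 lower of 7655 genes) and 1 with the version 4 form of edgeR (5 and 2 of 8800). With 1 rabbit left out they ran from 0 to 6 and 0 to 3 in the intima of the BA and the BT, and 0 to 0 and 1 to 12 in their media.

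Of the 5 members, 4 passed between layers with DESeq2, 2 with the version 4 form, 0 with library size alone and 0 to 1 with 1 rabbit left out. Of 9056 genes, DESeq2 called 845 higher and 844 lower in the intima, and the version 4 form 673 and 558. Library size alone called 647 and 207 of 9083, and the fit without the replicate block 261 and 162 of 9056. With 1 rabbit left out the calls over all genes ran from 123 and 64 of 9016 (without rabbit 4) to 394 and 407 of 8963 (without rabbit 3). Without the replicate block, which pairs libraries of the same rabbit, the layer count was 0, and no call between BT and BA changed. With all genes that had a count, 2 members, VIT and MFAP5, passed between BT and BA in the media, where 35 of 11067 genes were higher and 36 lower at the BT.

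Directions that turned did so when 1 rabbit was left out. The log2 fold change of ligation in the BA intima ran from -10.02 to 4.20 for VIT and from -3.35 to 0.90 for NID2, in the BA media from -2.09 to 0.11 for NID2, and in the BT media from -2.06 to 8.02 for MFAP5. Between BT and BA it ran in the intima from -0.68 to 0.15 for ABI3BP and from -2.16 to 3.41 for VIT, and in the media from -0.29 to 0.31 for FNDC1. The causes were not tested. Of the 3 genes most like each member, 2, 2, 3, 1 and 0 remained with log2(CPM + 5) for ABI3BP, FNDC1, VIT, MFAP5 and NID2, and 1, 1, 1, 0 and 0 by ranks. Depth limits the genes with libraries at 0, VIT, MFAP5 and NID2.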
